A study of Cicer arietinum with 18 samples.

Results

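In shoots of chickpea (Cicer arietinum) seedlings, 46 array features formed a set that was low 27 h after salicylic acid (SA) and near the untreated control 27 h after aminocyclopropane carboxylic acid (ACC). The set was chosen from the deposited values themselves. A feature belonged to it when the mean over genotypes was at or below -0.5 at SA 27 h and between -0.5 and 0.4 at ACC 27 h, all as log2 ratios of treated to control RNA, with at least 2 values in each group. The rule was applied to the 559 features whose identifiers start with CA or U, of 715 experimental features on the array, and 469 of the 559 had enough values. Of these, 161 had an SA 27 h mean at or below -0.5, among which 105 were also at or below -0.5 at ACC 27 h, 10 were at or above 0.4 there, and the 46 lay between.

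The array compared treated with untreated plants of 3 genotypes aged 14 days, the resistant line ICC3996, the moderately resistant line FLIP94-508C and the susceptible cultivar Lasseter, where resistance refers to ascochyta blight, a fungal disease. Plants received SA, ACC or methyl jasmonate (MeJA), and stem and leaf tissue was pooled at 27 h or 3 h after treatment. Each of the 18 samples is 1 combination of genotype, compound and time, so a group such as SA 27 h has 3 samples, 1 for each genotype, and the genotypes are its replicates. Each deposited value is the authors' mean over 3 biological replications with dye swaps, and the values of single replications were not used here. Labels make treated over control the likely direction of the ratio, the value column itself states none, and every sign below rests on that reading. Doses are not given in the sources used here, nor whether the compounds were set against the same untreated plants. Whole shoots were sampled, so less RNA per cell and fewer cells that hold it cannot be told apart.

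SA is a hormone made after attack by many pathogens. In Arabidopsis it acts through NPR receptors and TGA transcription factors, and it is known there to hold down part of the jasmonate response. ACC is turned into ethylene by ACC oxidase, and ethylene signals through transcription factors of the EIN3 family. MeJA is the methyl ester of jasmonic acid and is used to set off wound and defence responses. The files used here pair no identifier with a gene, and a search of the reference gene table found 0 of the 715, so members are named by identifier, few for each comparison, and no role or sequence is given for them.

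The ICC3996 sample 27 h after MeJA stood apart from the other MeJA samples, with 58 of 544 measured features at least 2-fold below control, against 4 to 16 in the other MeJA samples, and the fits were also run without it, an alternative chosen after seeing the data for the comparisons without MeJA 27 h. Within single samples the SD over features was 0.276 to 1.22 on the log2 scale, the share of features without a value from 10.6% to 25.3%, and the sample median from -0.32 to 0.00. The lowest correlation between any pair of samples over features was -0.23.

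The depth of the late fall under SA differed widely between members. The SA 27 h means ran from -3.43 to -0.50, with a median of -1.01, and 23 of the 46 means were at or below -1, that is at least 2-fold lower. At ACC 27 h the means ran from -0.50 to 0.29, with a median of -0.30. A mean at or below -0.5 was found for 36.7% of all features at SA 27 h and for 37.1% at ACC 27 h. Over all features with at least 2 values the medians were -0.20 at SA 27 h and -0.29 at ACC 27 h. The members' ACC 27 h means lay within the rule's bounds by choice, while 18.0% of all features had one at or above 0.4. The likeness of the ACC medians is therefore not a result about the members. Because these values chose the members, they are given as a description with no test. The heat map of all 46 members shows the SA 27 h columns blue nearly throughout, while the ACC 27 h columns hold both colours.

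**Figure D1:**
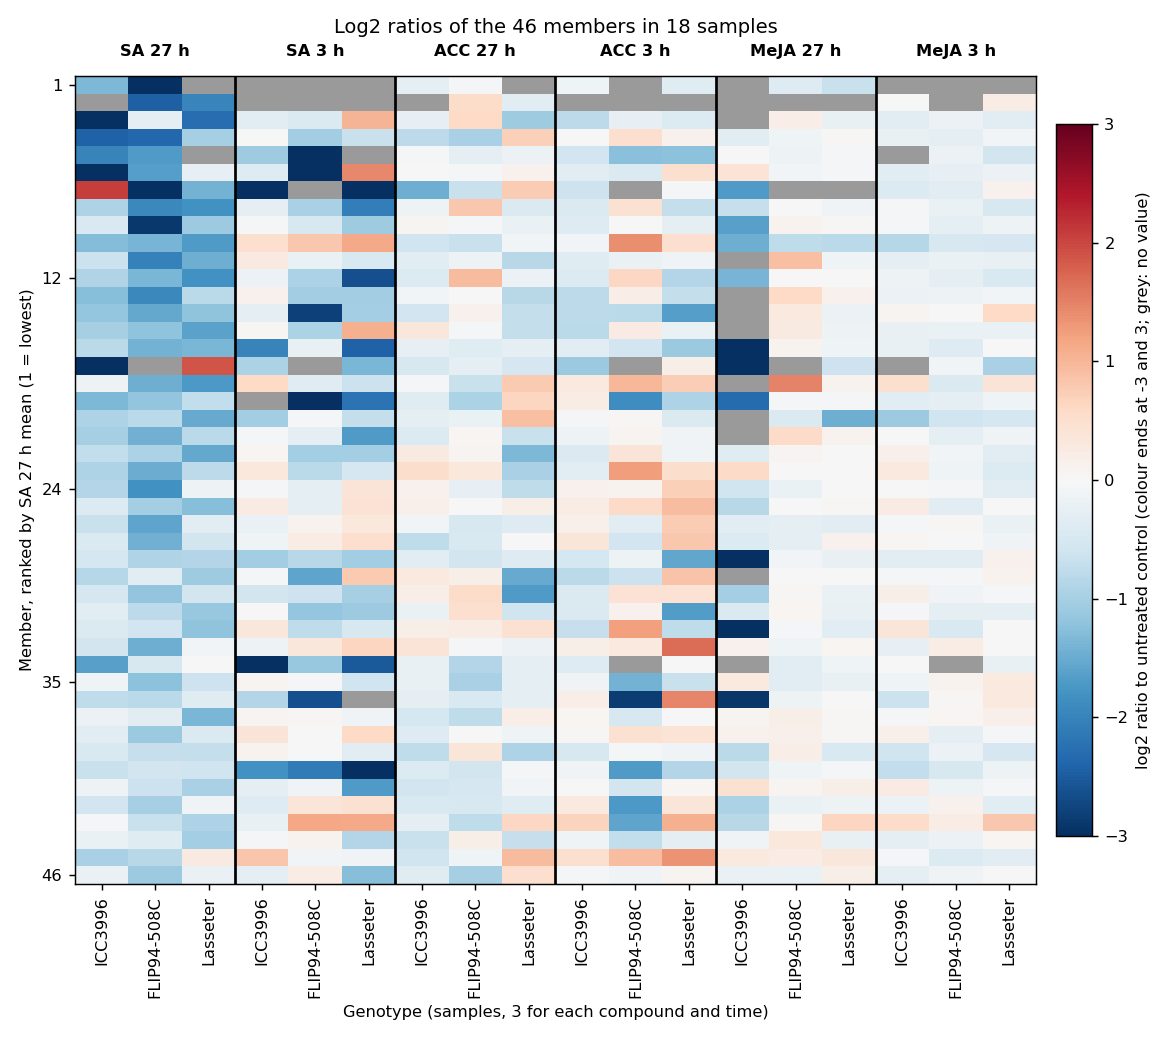
Log2 ratios to untreated control of the 46 members (rows, ranked by the SA 27 h mean) in the 18 samples (columns, grouped by compound and time, with ICC3996, FLIP94-508C and Lasseter in each group). Blue is below control, red above, and grey has no value; 12 members have no value in the ICC3996 sample at MeJA 27 h.

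The 2 lowest means rested on 2 genotypes each. U273 was at -1.35 in ICC3996 and -5.51 in FLIP94-508C at SA 27 h, with no value in Lasseter, against -0.26 and -0.04 in the same genotypes at ACC 27 h. U476 was at -2.45 in FLIP94-508C and -1.98 in Lasseter at SA 27 h, with no value in ICC3996, against 0.56 and -0.32 at ACC 27 h. Neither had a value at SA 3 h in any genotype. Of the 46 members, 42 had values in all 3 genotypes at both SA 27 h and ACC 27 h.

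Among members measured in all 3 genotypes at SA 27 h, 39 of 42 were below control in all 3, where 40.0% of all features were at SA 27 h and 37.5% at ACC 27 h. At least 2-fold lower in all 3 were 3 members and 2.82% of all features. The choice of members raises both of their counts by itself. The most even deep falls were those of U102 and U002. U102 was at -1.31 in ICC3996, -1.39 in FLIP94-508C and -1.70 in Lasseter at SA 27 h, and at -0.59, -0.66 and -0.08 in the same order at ACC 27 h. U002 was at -1.17 in ICC3996, -1.54 in FLIP94-508C and -1.20 in Lasseter at SA 27 h, and at -0.56, 0.12 and -0.72 in the same order at ACC 27 h. For both members every SA value lay below every ACC value.

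That separation was not general within the set. Genotype by genotype, 23 of 42 members were lower under SA than under ACC at 27 h in 3 of 3 genotypes, 15 in 2 of 3 and 4 in 1 of 3. The rule used both sets of values, which raises the count for 3 of 3 by itself, and the share over all features was not counted. The ACC 27 h mean could also hide unlike genotypes, since 6 members were at least 2-fold lower in at least 1 ACC 27 h sample, though 35.1% of all features were. Members at the edge of the rule differed little from features outside it. U026 (-0.50) and CA0878 (-0.51) had the SA 27 h means closest to the threshold, and U514 (-0.50) and U267 (-0.48) lay just outside it. At the ACC bounds, U265 was at -0.50 and U371 at 0.29 inside, and U402 at -0.51 and U081 at 0.44 outside.

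Some members had means that joined opposite values. The genotypes differed most at SA 27 h for U434, which was at 2.08 in ICC3996, -5.47 in FLIP94-508C and -1.42 in Lasseter. U400 was at -4.14 in ICC3996 and 1.89 in Lasseter, with no value in FLIP94-508C, so its mean of -1.12 describes neither sample. Each had a value in 8 of the 12 samples that the rule did not use. The median SD over genotypes at SA 27 h was 0.443 for members and 0.319 for all features with 3 values.

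The 12 samples that the rule did not use, SA 3 h, ACC 3 h, MeJA 27 h and MeJA 3 h, were tested in 1 moderated linear model (limma) with 4 group means and a genotype term, over all 527 features with at least 2 values in each of these groups. This included 43 of the 46 members. Adjusted p-values are Benjamini-Hochberg values over the 527 features, with a threshold of 0.05, and SE is the standard error from limma. The genotype term takes out differences between genotypes that are the same in every group. These p-values rest on the spread that remains, from unlike responses of the genotypes between groups, measurement error included. The spread between plants of a genotype enters only through values that are means over 3 biological replications. It cannot be told apart from the rest. Each feature has 1 remaining spread, shared by the 4 groups, so a group with wide values also widens the SE of the others.

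Part of the set was already low 3 h after SA. Of 44 members with at least 2 values there, 22 had a mean at or below -0.5, against 25.8% of all features, and 2 had a mean at or above 0.4, against 7.71% of all features. The members' means had a median of -0.49, and those of all features -0.15. In the limma fit 2 of 43 members passed at SA 3 h (4.65%), both lower, where 2.28% of all features passed, 12 in all, 2.09% lower and 0.19% higher. At an unadjusted p under 0.05 there were 17 of 43 members (39.5%), against 19.2% of all features. With calls this few, the share of members that passed is not a result about the set.

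U072 fell early and more deeply than late. It was at -1.82 in ICC3996, -2.09 in FLIP94-508C and -3.12 in Lasseter at SA 3 h, a mean of -2.35 (SE 0.32, limma adjusted p = 0.0103), lower in 3 of 3 genotypes. At SA 27 h it was at -0.67, -0.55 and -0.59 in the same order, so that every 27 h value lay above every 3 h value. At ACC 3 h it was at -0.11, -1.70 and -0.89 (mean -0.90, SE 0.32, limma adjusted p = 0.182), and the ACC and SA values of 3 h did not overlap. The difference of SA 3 h and ACC 3 h itself was -1.45 (SE 0.46, limma adjusted p = 0.334) and did not pass. Without the Lasseter sample at SA 3 h the call of U072 was lost (log2 ratio -1.87, limma adjusted p = 0.102), as it was without any 1 genotype.

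U303, the other call, had its lowest values in other genotypes. It was at -3.45 in ICC3996, -1.14 in FLIP94-508C and -2.52 in Lasseter at SA 3 h, a mean of -2.37 (SE 0.32, limma adjusted p = 0.0368), lower in 3 of 3 genotypes. At SA 27 h it was at -1.62, -0.48 and 0.01 in the same order, so Lasseter was at the level of its control. U303 had 9 of the 12 values in the fit. Its call was lost without the ICC3996 sample at SA 3 h (log2 ratio -1.95, limma adjusted p = 0.0803), without the Lasseter one (-2.33, limma adjusted p = 0.294) and without all samples of ICC3996 (-1.83, limma adjusted p = 0.0906). It was also lost with equal spread of the samples (-2.22, limma adjusted p = 0.10) and with sample weights (-2.19, limma adjusted p = 0.0747).

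U247 and U186 were lower still at SA 3 h but narrowly missed the threshold. The lowest measured mean there was that of U434 (-4.00), with -4.48 in ICC3996, -3.53 in Lasseter and no value in FLIP94-508C. U434 had only 1 value at MeJA 27 h and so was not among the features tested. U247 was at -5.38 in FLIP94-508C and -2.21 in Lasseter, with no value in ICC3996, and its fitted mean of -3.88 (SE 0.80, limma adjusted p = 0.0555) allows for the missing sample. U186 was at -1.08 in ICC3996 and -4.46 in FLIP94-508C, with no value in Lasseter, and its fitted mean was -2.90 (SE 0.56, limma adjusted p = 0.0555). At SA 27 h U247 was at -1.35 in ICC3996, -1.18 in FLIP94-508C and -0.73 in Lasseter, all above its 3 h values. U186 was at -2.005 in ICC3996 and -1.71 in FLIP94-508C at SA 27 h, below its 3 h value in ICC3996 and above it in FLIP94-508C. In a fit of all 18 samples, whose spread also draws on the samples that chose the members, the count at SA 3 h was 7 of 43 members (16.3%), 6 lower and 1 higher, where 6.12% of all features passed.

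U102 and CA0742 were the members with an SA 3 h mean at or above 0.4 and were below control in 3 of 3 genotypes at SA 27 h. For U102 the genotypes were of 1 sign at each time. At SA 3 h it was at 0.50 in ICC3996, 0.81 in FLIP94-508C and 1.13 in Lasseter, a mean of 0.81 (SE 0.20, limma adjusted p = 0.0811), which did not pass. All of its SA 3 h values were above control and all of its SA 27 h values below, so the means were apart by -2.28, 27 h minus 3 h. It was the only member above control in 3 of 3 genotypes at SA 3 h, of 39 with 3 values, where 16.8% of all features were. At ACC 3 h it was at -0.09 in ICC3996, 1.39 in FLIP94-508C and 0.51 in Lasseter (limma adjusted p = 0.148).

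**Figure D2:**
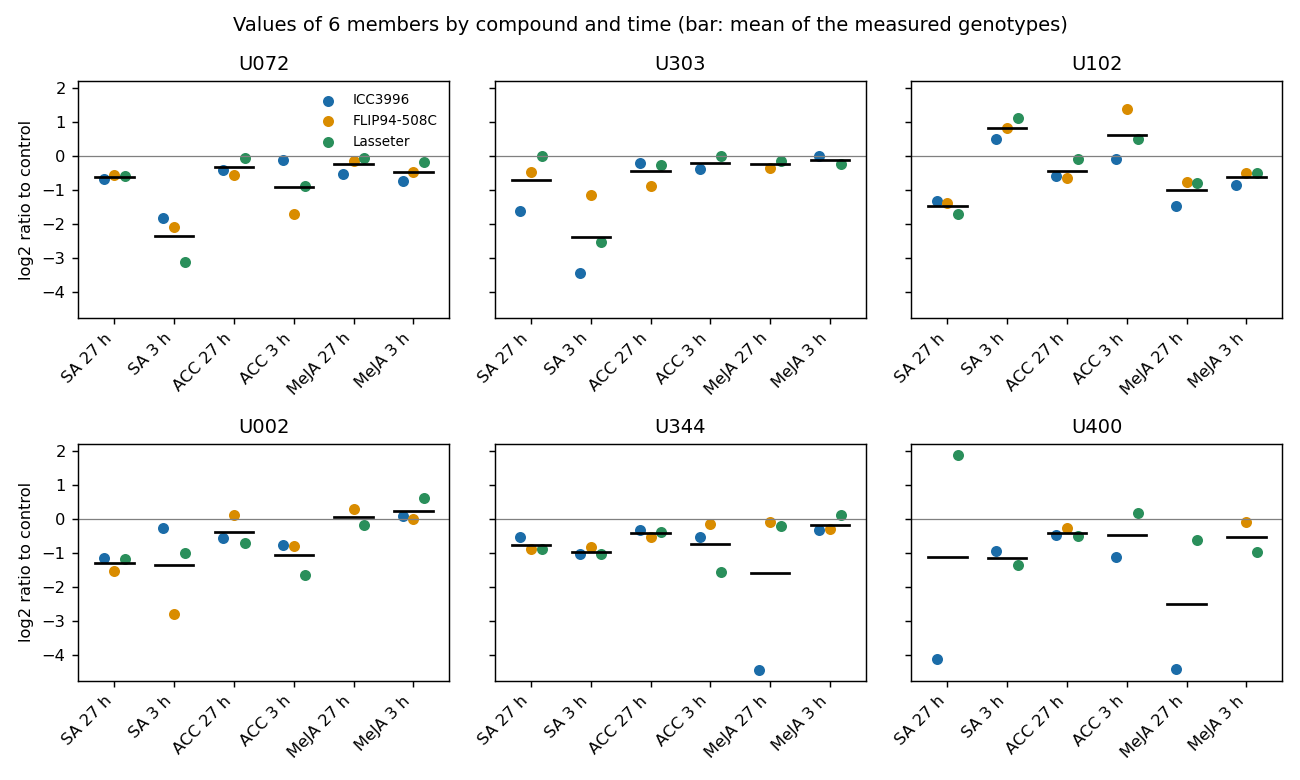
Log2 ratios of 6 members by compound and time, with 1 point for each genotype and a bar at the mean of the measured genotypes. U072 and U303 have their lowest means at SA 3 h, U102 is above control at SA 3 h and below it at SA 27 h, and U344 and U400 have a single low ICC3996 value at MeJA 27 h.

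Over the set as a whole, the later SA time was usually the lower. By means, 32 of 44 members were lower at 27 h than at 3 h and 12 were higher, with a median difference of -0.48 (27 h minus 3 h) and a range of -2.28 to 2.71. In 18 of the 39 members measured in every genotype at both times, 27 h was lower in 3 of 3 genotypes, and in 2 it was higher in 3 of 3. The rule asked for a low SA 27 h mean and set nothing at 3 h, so it favours this direction by itself. The difference was therefore not tested, and these counts are not a result about the members. The matching shares over all features were not counted. The 22 members with an SA 3 h mean at or below -0.5 had a median SA 27 h mean of -1.11 and a median SA 3 h mean of -1.04. The 20 members between -0.5 and 0.4 at SA 3 h had medians of -0.75 at SA 27 h and 0.01 at SA 3 h. By this cut, some members had low means at both times and others at the later time alone. The late means of both kinds overlapped, as the plot of SA means shows. The cut does not place single members firmly. The members' median SD over genotypes at SA 3 h was 0.579, and only 2 of 43 members passed there in limma.

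**Figure D3:**
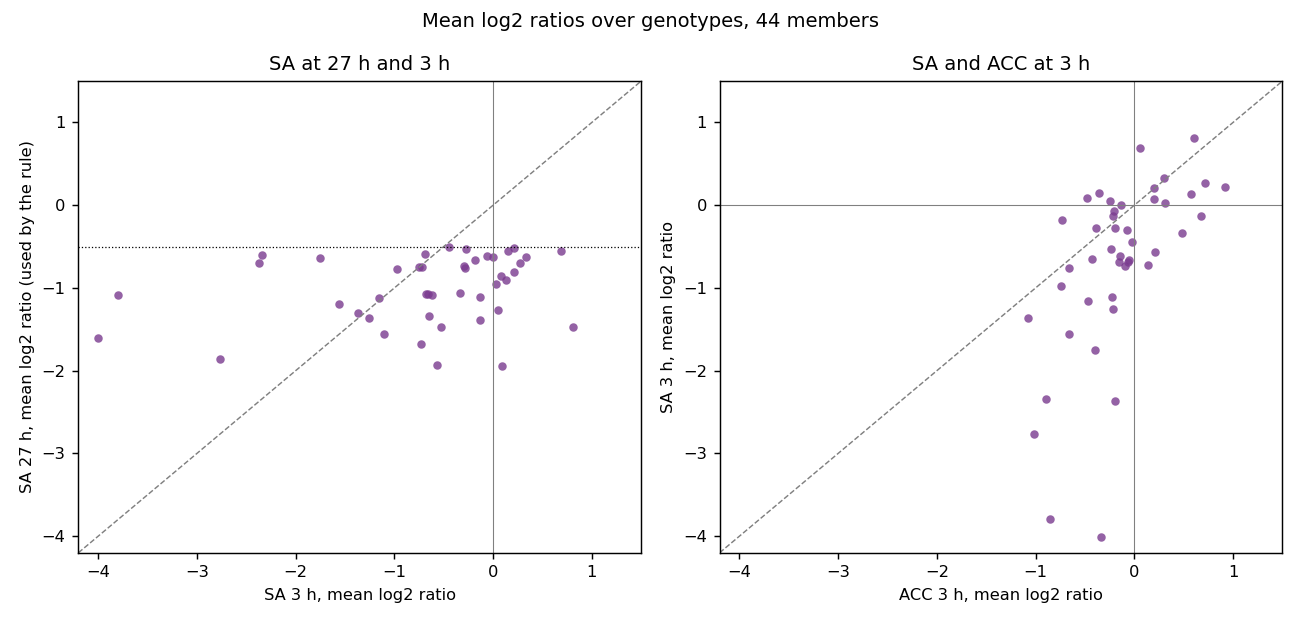
Mean log2 ratios over genotypes of the 44 members with at least 2 values at SA 3 h, SA 27 h against SA 3 h (left; the dotted line is the rule's threshold of -0.5) and SA 3 h against ACC 3 h (right); the dashed lines mark equal values. SA 27 h means lie below the dashed line for 32 members, and the 3 h means reach -4.00 under SA and -1.08 under ACC.

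At 3 h the members were closer to control under ACC than under SA. The means at ACC 3 h had a median of -0.20 over 45 members, the same as the -0.20 of all features, and ran from -1.08 to 0.91. A mean at or below -0.5 was found for 8 of 45 members, against 28.1% of all features, and a mean at or above 0.4 for 6, against 9.54%. In limma 0 of 43 members and 0% of all features passed at ACC 3 h, with 7 members (16.3%) and 16.9% of all features below 0.05 without adjustment. The methods' t-test, a one-sample test on the same 3 values, gave 0 after adjustment and 1 member before it. The matching count over all features is not given, so that 1 member is not a result about the set. The combination that defined the set at 27 h, SA at or below -0.5 with ACC between -0.5 and 0.4, was present at 3 h in 15 of the 44 members with enough values (34.1%), and in 13.1% of the 444 CA and U features with enough values.

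CA0878 had the largest ACC 3 h mean. It was at 0.48 in ICC3996, 0.92 in FLIP94-508C and 1.34 in Lasseter, a mean of 0.91 (SE 0.23, limma adjusted p = 0.119), above control in 3 of 3 genotypes without passing. Without the ICC3996 sample at ACC 3 h it did pass (log2 ratio 1.27, limma adjusted p = 0.0129), and the count of all features that passed was 71 there, with 2 members. U002 had the lowest ACC 3 h mean, with -0.77 in ICC3996, -0.81 in FLIP94-508C and -1.65 in Lasseter (mean -1.08, SE 0.40, limma adjusted p = 0.204). Its SA 3 h values of -0.28, -2.80 and -1.02 in the same order overlapped with these (mean -1.37, SE 0.40, limma adjusted p = 0.134). U002 was thus below control in 3 of 3 genotypes under both compounds at 3 h, though neither mean passed. Its separation between the compounds at 27 h lies in the values that chose the members.

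When SA 3 h was set against ACC 3 h directly, 0 of 43 members passed in limma, where 0.38% of all features did, and 6 members (14.0%) and 9.68% of all features were at an unadjusted p under 0.05. U247 had the lowest difference (-3.03, SE 1.01, limma adjusted p = 0.381), fitted around the missing ICC3996 value at SA 3 h. CA0742 had the highest (0.63, SE 0.61, limma adjusted p = 0.733), with -0.23 in ICC3996, 1.16 in FLIP94-508C and 1.13 in Lasseter at SA 3 h, against 0.67, -1.57 and 1.07 at ACC 3 h. Its sign turned without the FLIP94-508C sample at ACC 3 h (-0.23). The difference between the compounds that defines the set at 27 h was therefore not detectable member by member at 3 h with 3 genotypes.

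**Figure D4:**
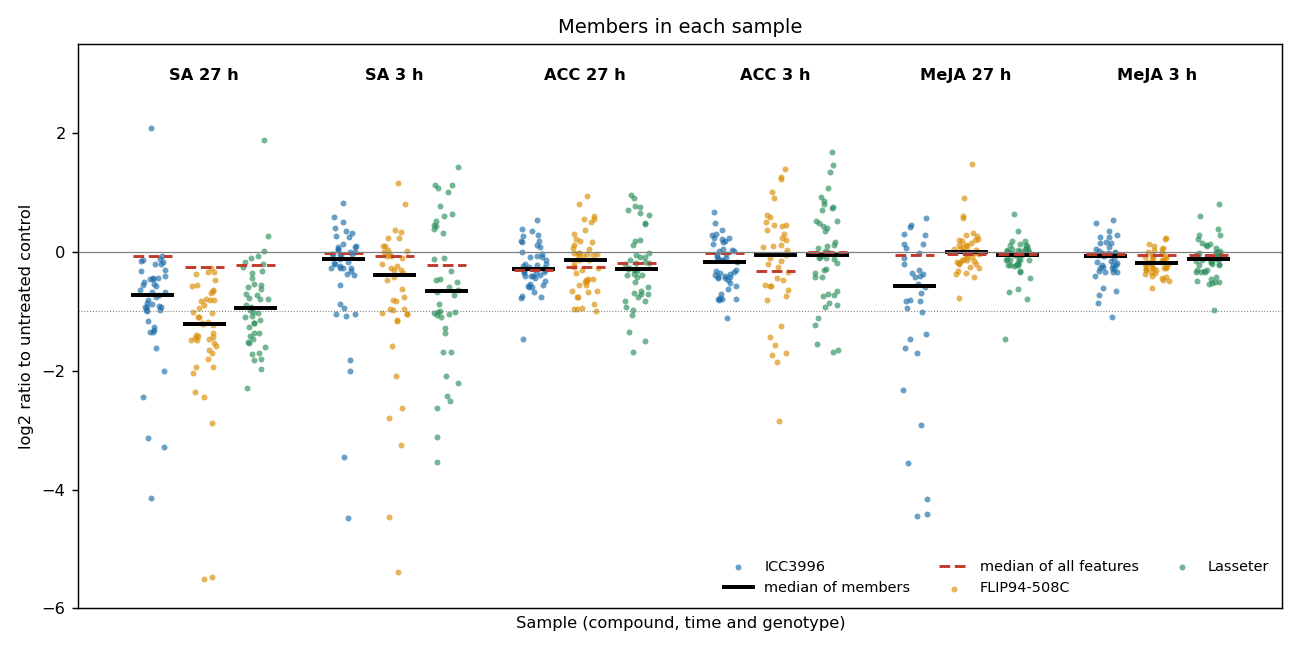
Log2 ratios of the members in each sample, by compound, time and genotype (ICC3996, FLIP94-508C and Lasseter from left to right in each group), with the median of the members (black) and of all features (red, dashed); the dotted line marks a 2-fold fall. The members' median is lowest in FLIP94-508C at SA 27 h (-1.21), and among the MeJA samples in ICC3996 at 27 h (-0.57).

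MeJA left most members near control. At MeJA 27 h the members' means had a median of -0.17 over 44 members, and all features -0.06, and at MeJA 3 h the medians were -0.12 over 45 members and -0.05. A mean at or below -0.5 was found for 9 of 44 members at MeJA 27 h (20.5%), against 9.48% of all features. At MeJA 3 h it was found for 3 of 45 (6.67%), against 4.62%. Below control in 3 of 3 genotypes were 18 of 41 members at MeJA 3 h (43.9%), against 28.5% of all features. At MeJA 27 h 9 of 32 were (28.1%), against 25.8%. Above control in 3 of 3 were 1 member at MeJA 3 h (2.44%), against 15.8%, and 4 at MeJA 27 h (12.5%), against 21.2%. In limma 0 of 43 members and 0% of all features passed at either time. At an unadjusted p under 0.05 there were 3 members at each time (6.98%), with 3.8% of all features at 27 h and 2.28% at 3 h. The methods' t-test gave 0 after adjustment at both times, and before it 3 members at 27 h and 6 at 3 h. Over all features, the alternatives to the main fit gave up to 48 calls at MeJA 27 h and 73 at MeJA 3 h. These unadjusted counts of members are therefore not a result about the set. The spread that limma shares over the groups limits its test of MeJA. Over all features with 3 values, the median SD over genotypes was 0.236 at MeJA 27 h and 0.168 at MeJA 3 h. It was wider at SA 3 h (0.42) and ACC 3 h (0.529), so the limma result is no proof that MeJA left the members unchanged.

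Most of the deep falls at MeJA 27 h were values of a single sample. In ICC3996 11 of the 34 measured members were at least 2-fold lower (32.4%), where 10.7% of all features were, and none of these 11 was 2-fold lower in any other MeJA sample. In the other MeJA samples 0 or 1 members were at least 2-fold lower. Without the ICC3996 sample the 27 h means had a median of -0.04 over 43 members, and 3 were at or below -0.5, against 9 of 44 with it. The same sample had no value for 12 of the 46 members (26.1%) and for 23.9% of all features. What part the state of that sample has in these low values was not tested.

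U344 and U400 had the lowest values of the members in that sample. U344 was at -4.45 in ICC3996, -0.09 in FLIP94-508C and -0.22 in Lasseter at MeJA 27 h (mean -1.58, SE 0.64, limma adjusted p = 0.989), and its fitted mean without ICC3996 there was -0.15. At SA 27 h it was at -0.54, -0.90 and -0.89 in the same order, with no such gap. U400 was at -4.41 in ICC3996 and -0.63 in Lasseter at MeJA 27 h, and its fitted mean of -1.97 (SE 0.88, limma adjusted p = 0.989) allows for the missing FLIP94-508C value. Without ICC3996 at MeJA 27 h the fitted mean was -0.48, with Lasseter as the only value left in that group. At SA 27 h U400 was also low in ICC3996 (-4.14), so its low value in that genotype was not confined to MeJA. At MeJA 3 h U400 was at -0.09 in FLIP94-508C and -0.97 in Lasseter, a measured mean of -0.53. Its fitted mean of -1.20 (SE 0.81, limma adjusted p = 0.998), the lowest of the members there, fills the missing ICC3996 value through the genotype term, and without the ICC3996 sample at MeJA 27 h it was -0.82. By measured means U181, named after its values were seen, was the lowest at MeJA 3 h (-0.74).

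U102 was the member most evenly low under MeJA. It was at -1.47 in ICC3996, -0.77 in FLIP94-508C and -0.80 in Lasseter at 27 h (mean -1.01, SE 0.20, limma adjusted p = 0.169), and at -0.86, -0.49 and -0.51 in the same order at 3 h (mean -0.62, SE 0.20, limma adjusted p = 0.998). All 6 MeJA values were below control, though neither mean passed. Without ICC3996 at 27 h the fitted 27 h mean was -0.99. That fit fills the missing ICC3996 value through the genotype term, and the measured values left were -0.77 in FLIP94-508C and -0.80 in Lasseter. Set against MeJA 3 h, SA 3 h was higher by 1.43 (SE 0.28, limma adjusted p = 0.0843), with every SA value above every MeJA value. The difference did not pass.

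Higher values under MeJA were few. CA0742 had the highest mean at MeJA 3 h, with 0.54 in ICC3996, 0.21 in FLIP94-508C and 0.80 in Lasseter (mean 0.52, SE 0.43, limma adjusted p = 0.998). U471 had the highest at MeJA 27 h, from 1.48 in FLIP94-508C and 0.10 in Lasseter with no ICC3996 value (fitted mean 0.90, SE 0.43, limma adjusted p = 0.989). Between SA 3 h and MeJA 3 h 0 of 43 members passed in limma, where 0.569% of all features did (0.19% higher and 0.38% lower), with 6 members (14.0%) and 5.69% of all features at an unadjusted p under 0.05. U247 had the lowest difference there (-3.64, SE 1.01, limma adjusted p = 0.366).

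MeJA 27 h and MeJA 3 h were not told apart for any member. In limma 0 of 43 members and 0% of all features passed, and 0 were at an unadjusted p under 0.05. U471 had the largest positive difference, 27 h minus 3 h (0.76, SE 0.55, limma adjusted p = 0.999), and U344 the largest negative one (-1.41, SE 0.91, limma adjusted p = 0.999). Without the ICC3996 sample at MeJA 27 h the difference of U344 was 0.02.

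By genotype, the late fall under SA was deepest in FLIP94-508C. The members' median at SA 27 h was -0.73 in ICC3996, -1.21 in FLIP94-508C and -0.95 in Lasseter. At least 2-fold lower were 11 of 45 members in ICC3996, 29 of 45 in FLIP94-508C and 21 of 44 in Lasseter, where 12.6%, 23.8% and 18.5% of all features were in the same order, so the genotypes ranked alike over the whole array. Of the 42 members with 3 values, 7 had their lowest SA 27 h value in ICC3996 (16.7%), 20 in FLIP94-508C (47.6%) and 15 in Lasseter (35.7%), against 25.6%, 40.2% and 34.2% of all features. These values helped to choose the members and are a description.

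At SA 3 h the order of the genotypes was another. The members' median was -0.12 in ICC3996, -0.39 in FLIP94-508C and -0.66 in Lasseter, and 7 of 43, 12 of 42 and 17 of 42 members in the same order were at least 2-fold lower. All features gave 9.41% in ICC3996, 7.97% in FLIP94-508C and 22.1% in Lasseter. ICC3996 thus had the fewest low members at both SA times, but not in every group. It had 1 at ACC 27 h, as did FLIP94-508C, with 4 in Lasseter. All features gave 21.9%, 19.8% and 20.2% there, and the rule's lower ACC bound keeps the members' counts down by itself. ICC3996 had the most at MeJA 27 h (11), where all features gave 10.7% in ICC3996, 0.64% in FLIP94-508C and 0.677% in Lasseter. At MeJA 3 h it had 1 (2.33%) and the others 0, where all features gave 2.57%, 0.843% and 1.44%, so that 1 is near the array's share. At ACC 3 h ICC3996 had 1 of 45, against 7 of 41 in FLIP94-508C and 5 of 45 in Lasseter, where all features gave 4.23%, 30.3% and 16.5%. These are values of single samples with no error of their own.

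Genotypes were tested over the 12 samples that the rule did not use, 4 for each genotype. In limma 0 of 43 members and 0% of all features passed for ICC3996 minus Lasseter, for FLIP94-508C minus Lasseter or for ICC3996 minus FLIP94-508C, and in each comparison 1 member (2.33%) and 1.52% of all features were at an unadjusted p under 0.05. U186 was the highest in ICC3996 relative to Lasseter (1.03, SE 0.67, limma adjusted p = 0.999) and to FLIP94-508C (1.30, SE 0.60, limma adjusted p = 0.994). U400 was the lowest in both, at -1.55 (SE 0.84, limma adjusted p = 0.999) and -2.43 (SE 1.67, limma adjusted p = 0.994), from 8 values. Without ICC3996 at MeJA 27 h these differences were 1.71 and 1.88 for U186 and -0.43 and -1.31 for U400. For FLIP94-508C minus Lasseter, U400 was the highest (0.88, SE 1.45) and U380 the lowest (-1.81, SE 0.99), both with a limma adjusted p of 0.979. The standard errors show the limit of these tests, since differences of about this size were within the spread between samples.

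Apart from their values the members had little in common that the files record. Identifiers starting with CA made up 11 of the 46 (23.9%), against 20.9% of the 559 CA and U features. All 18 values were present for 29 members, and the other 17 lacked at least 1, up to 12 for a single member.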

How the data were processed

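The deposited value table holds 18 columns of log2 ratios, 1 for each sample, and every column was used. Per the series' design text, the authors scanned the slides with Jaguar 2.0, quantified spots with ImaGene 5, subtracted the local background, omitted flagged spots, applied Lowess normalisation and took a shifted log2 of the Cy5/Cy3 ratio in GeneSight 3. The size of the shift is not stated there; a shift pulls ratios of dim spots towards 0.

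Members were found by the rule with pandas 2.3.3. Tests used limma 3.58.1 in R 4.3.3, with genotype as a block (each group holds 1 sample of every genotype) and 6 residual degrees of freedom for features with all 12 values. Each contrast was fitted as its own coefficient, and the fit was tested on simulated data. The members and lists were chosen with earlier results of these data known. No gene list could be matched to a feature, so none was used. Named members followed a written rule: the lowest SA 27 h means, those nearest the thresholds, the largest changes of each comparison among calls (or without calls, said not to pass), the most even 2-fold falls and the widest genotype ranges. The values given beside these for U102, U247, U186, U002 and U434 in other comparisons were chosen after seeing them. Arrays give no read depth; their number limits the precision.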

Additional observations from a re-analysis of the deposited data

Results flagged for a closer look

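A sample far from the others within the 6 of a compound was found in 8 of 25 searches. Chance marks about 1 in 20 independent groups, but these searches share samples and members, 7 of the 8 are the same sample, and the members searched include ones named for a large MeJA change, so that rate does not apply to them. Among MeJA samples, all of these were ICC3996 at 27 h: the members' median of -0.57 (others -0.18 to 0.00), the 11 members at least 2-fold lower (others 0 to 1), the 12 members without a value (others 1 to 3), and the values of U247 (-2.32), U344 (-4.45), U371 (-3.56) and U380 (-2.91), for which the others lay between -0.65 and 0.36. Among ACC samples, FLIP94-508C at 3 h had 5 members without a value (others 0 to 1).

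The named members were also searched for opposite signs in all genotypes between 4 pairs of groups (SA 27 h and SA 3 h, ACC 27 h and ACC 3 h, ACC 3 h and MeJA 3 h, SA 27 h and MeJA 27 h), and 2 had them. Other pairs were not searched. U102 differed by -2.28 between SA 27 h and SA 3 h, which was not tested because the 27 h values chose it. CA0878 was above control in 3 of 3 genotypes at ACC 3 h and below it in 3 of 3 at MeJA 3 h, a difference of 1.19 that was not tested.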

How the results depend on the processing

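The number of members called at SA 3 h, 2 of 43 tested, was 7 in a fit of all 18 samples, 1 over features with all 12 values, 4 with no filter on missing values, 4 with sample medians subtracted, 1 with equal spread, 4 with sample weights, and 0 by the methods' t-test after adjustment (4 before it). Without a replicate block it was 3, a genotype block being the pairing of these samples. Leaving out a sample or a genotype gave 0 to 2. U303 was not among the calls with equal spread or with sample weights. Without ICC3996 at MeJA 27 h, both calls remained, and 6 features passed. The 12 calls over all features there were 32 with 18 samples, 5 with all values, 19 with no filter, 4 with equal spread and 0 to 15 across the leave-out fits. At ACC 3 h leaving out a sample or a genotype gave 0 to 2 members (0 to 71 features), and the methods' t-test 1 before adjustment. MeJA 3 h had 1 with sample weights and 6 by the methods' t-test before adjustment. MeJA 27 h had 1 with equal spread, 1 with sample weights and 3 by that t-test. The unadjusted t-test counts of members are given without the matching counts over all features and are not a result about the set. SA 3 h minus ACC 3 h had 1 with no filter and 0 to 1 in fits that left out samples (0 to 24 features). SA 3 h minus MeJA 3 h had 3 in the fit of 18 samples, 1 with no filter, 1 with sample weights and 0 to 1 in fits that left out samples. Over all features, ACC 3 h had 0 calls, but 3 without a replicate block, 4 with 18 samples, 5 with no filter and 1 with equal spread; SA 3 h minus MeJA 3 h had 3, but 7 with 18 samples, 5 with no filter, 1 with all values or equal spread and 0 to 6 across the leave-out fits; and SA 3 h minus ACC 3 h had 2, but 0 with all values or equal spread. The MeJA time comparison and the 3 genotype comparisons had 0 members under every alternative run.

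Some signs turned, none of a call. Leaving out samples or genotypes, CA0742 for SA 3 h minus ACC 3 h ran from -0.42 to 1.40 (negative without FLIP94-508C at ACC 3 h, -0.23, or in full), and for MeJA 27 h minus 3 h U344 ran from -2.23 to 0.019 (positive without ICC3996 at 27 h) and U471 from -0.19 to 1.64 (negative without FLIP94-508C). U400 for FLIP94-508C minus Lasseter was -0.073 with 18 samples. The causes were not tested. Membership itself moved with the rule: 29 members at an SA threshold of -0.75, 23 at -1, 19 with ACC within 0.25 of 0, 58 after median subtraction (33 shared), 55 with equal spread (31 shared) and 36 to 62 without 1 genotype (36 without FLIP94-508C, 62 without ICC3996 and 41 without Lasseter, with 24, 36 and 31 of the 46 shared in that order).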
